A study of Mus musculus with 27 samples.

Results

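The nuclear-encoded subunits of respiratory complex I were followed in mouse heart ventricle across postnatal age and after loss or gain of the RNA-binding protein MBNL1. Members were chosen by symbol, as every gene whose name begins with Nduf followed by a, b, c, s or v and a number, with assembly factors (Ndufaf) and genes marked as pseudogenes in their symbol left out. Of 55487 genes in the count table, 40 met this rule. The annotation lists 37 of them as protein-coding and 3 (Ndufa11b, Ndufb4c and Ndufs6b) as processed pseudogenes. Of the 37, 35 encode structural subunits of complex I, and Ndufa4 and Ndufa4l2 carry the name but are not complex I subunits. Ndufb1, an accessory subunit of the distal membrane arm, was not found under that symbol and is not covered. The pseudogenes had at most 11 counts in any library, with sums over all libraries of 56, 97 and 134, and all 37 protein-coding members passed the filter on low counts.

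Complex I is the entry point of the mitochondrial respiratory chain. It takes electrons from NADH, passes them along iron-sulfur clusters in an arm that stands in the matrix, hands them to ubiquinone, and pumps protons through an arm that lies in the inner membrane. Its core subunits are shared with bacteria and are split between the nucleus (matrix arm) and mitochondrial DNA (membrane arm), while the accessory subunits surround the core and are needed for assembly and stability. Heart muscle depends on oxidative phosphorylation after birth, when it turns from glucose and lactate to fatty acids.

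RNA from ventricles was sequenced in 27 libraries of 7 groups. Hearts of postnatal day 60 (P60) were taken at either of 2 times after knockout. The earlier time, 7 days, had 5 libraries with MBNL1 loss of function, labelled KO, beside 4 controls (Ctl), and the later, 14 days, had 4 beside 3. Postnatal day 7 (P7) had 4 libraries with MBNL1 gain of function, labelled Tg, beside 3 controls. Postnatal day 1 (P1) had 4 controls. How the knockout was induced, which part of the gene was deleted, the cell type or promoter that drives the knockout or the transgene, the strain and the sex are not given in the labels, nor is whether the controls carried or received what induced the knockout. No label says if replicates were separate hearts, and a p-value therefore reflects only how far these libraries scatter, part of which may be technical.

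Total counts were 21929347 to 25675115 per library. Mbnl1 stood at 2927 to 4079 CPM (counts scaled to a fixed library size, with TMM factors) in the Tg libraries, against 96.9 to 104 in the controls of P7. In the libraries labelled KO it stood at 103 to 219 CPM at 7 days and 117 to 139 at 14 days, against 145 to 152 and 152 to 169 in their controls, so the gene total alone does not separate the libraries labelled KO at 7 days from their controls. Esr1, which encodes the estrogen receptor alpha, stood at 234, 1905, 651, 1671 and 193 CPM in KO libraries 1 to 5 of 7 days, at 1672 to 1983 at 14 days, and at 0.482 to 1.49 in the controls of P60. Libraries 1 and 5 thus had the lowest Esr1. They also had the lowest sums of fibroblast markers (3530 and 3863 CPM against 7648 to 9258 in KO libraries 2 to 4) and of cardiomyocyte markers (25750 and 19790 CPM against 35360 to 40060). The counts and medians of members at 7 days are also given without them. In Esr1 every library labelled KO lay far above every P60 control. What raised Esr1 and loss of MBNL1 therefore cannot be told apart in the KO comparisons. Counts from mitochondrial DNA were 26.04% to 29.6% of the total in the P60 controls, 14.73% to 21.57% in the libraries labelled KO and 10.27% to 16.9% at P7 and P1. All 10 cardiomyocyte markers had counts in every library, and the atrial markers summed to at most 652 CPM, against at least 19790 CPM for the cardiomyocyte markers.

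The 37 genes lie on 15 chromosomes, 2 of them (Ndufa1 and Ndufb11) on the X. Their starts were searched for short sequences known from promoters of respiratory chain genes, since the members moved together in most comparisons below. RefSeq windows of 250 bases before to 50 bases after the start (build GRCm38.p6) were at hand for 31 of the 35 structural subunits. AAGATGGCG, letters bound by YY1, was present in 5 of 31 windows (16.1%) against 1.64% of the windows of all 27025 genes. GCATGCGC, the palindrome-like core bound by NRF1, was present in 3 (9.68% against 3.05%). TNAAGGTCA, bound by estrogen-related receptors, was in 1 (3.23% against 1.43%), and CCGGAAGT, bound by ETS factors such as GABPA, in 1 (3.23% against 4.31%). Both strands were searched, and a gene with any of the 4 was counted once, which gave 10 of 31 (32.3%) against 9.84%. The 27025 genes were not limited to protein-coding or expressed genes, so they are not a like set for the 31 subunits. A match is one of letters only, not a site.

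The 5 stretches with the YY1 letters are shown because all of them lie 22 to 35 bases after the start, on the strand of the gene, and because the letters include an ATG. Each is written 5′ to 3′ on the strand of the gene, with the matched letters in capitals and its GRCm38.p6 position.
Ndufs7 (chr10:80249463-80249491, plus strand): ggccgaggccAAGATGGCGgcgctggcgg
Ndufs4 (chr13:114388045-114388069, minus strand): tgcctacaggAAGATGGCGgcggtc
Ndufs6 (chr13:73328433-73328459, minus strand): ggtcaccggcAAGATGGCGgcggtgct
Ndufa9 (chr6:126849097-126849125, minus strand): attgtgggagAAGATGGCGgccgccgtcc
Ndufc1 (chr3:51408915-51408943, minus strand): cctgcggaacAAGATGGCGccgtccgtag

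The ETS letters of Ndufs3 lie at the start itself, on the opposite strand, and are not shown. The stretches with the NRF1 letters and the estrogen-related receptor letters lie before the start, at 8 to 83 bases.
Ndufa8 (chr2:36049329-36049356, minus strand): cgctggagacGCATGCGCagatggtacc
Ndufa11 (chr17:56717694-56717721, plus strand): tgcactgcgcGCATGCGCgcacgccttg
Ndufa6 (chr15:82354357-82354384, minus strand): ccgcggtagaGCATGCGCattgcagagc
Ndufb4 (chr16:37654407-37654435, minus strand): ttcctgagccTGAAGGTCAgactcgagag
In Ndufa11 the NRF1 letters also match on the opposite strand, shifted by a few bases, so both matches there are one stretch.

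In the adult control heart the structural subunits differed widely in level per kilobase of merged exon length, which is the scale on which genes can be compared. In the P60 controls of 7 days, Ndufb11, a small subunit of the distal membrane arm, was among the highest at 481 ± 45.2 CPM per kb (SD, n = 4). Ndufb9 stood at 418 ± 31.7, Ndufa8 at 396.3 ± 21.99 and Ndufs7 at 376 ± 24.8. Ndufb2 was the lowest at 6.61 ± 0.401 CPM per kb, on a merged exon length of 5628 bases that holds long annotated isoforms and so lowers its value. It was also the lowest structural subunit before scaling by length, at a mean of 37.18 CPM, followed by Ndufb4 at 70.97. Most neighbours in this order did not differ beyond 1 SD of each. Across the 35 subunits, the rank correlation of the per-kilobase levels with those of the P60 controls of 7 days was 0.961 for the P1 controls and 0.966 for the libraries labelled KO at 7 days. These are descriptions across genes, which are not independent, and exon length enters both sides.

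**Figure D1:**
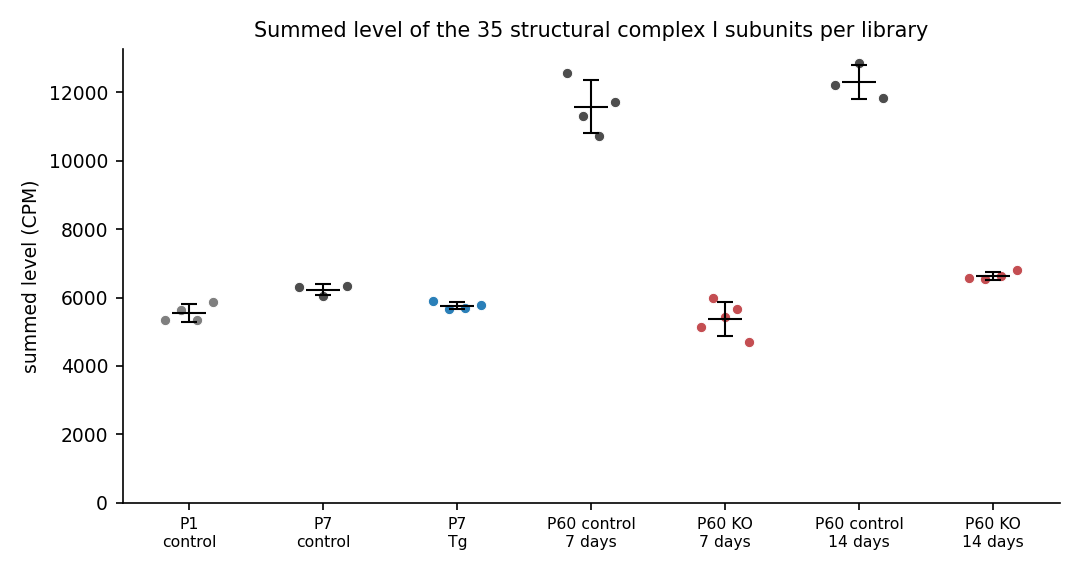
Summed level of the 35 structural complex I subunits (CPM, y axis) in each of the 27 libraries (points) by group (x axis), with mean and SD in black. The P60 controls sit between 10710 and 12850, above every other library, and the libraries labelled KO sit between 4690 and 6792.

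Summed over the 35 structural subunits, the libraries labelled KO at 7 days held 5382 ± 494.5 CPM (SD, n = 5) against 11580 ± 775.6 (n = 4) in their controls. At 14 days the sums were 6633 ± 110.5 (n = 4) against 12300 ± 511 (n = 3). The Tg libraries held 5763 ± 108.2 (n = 4) against 6228 ± 161.2 (n = 3) in the P7 controls, and the P1 controls held 5548 ± 264.2 (n = 4). The plot of summed levels shows that no library labelled KO reached any P60 control, and that their sums lie near those of P7 and P1. As a share of all counts that are not mitochondrially encoded, the subunits made up 0.666% against 1.25% at 7 days, 0.789% against 1.30% at 14 days, 0.793% against 0.865% in Tg, and 0.771% at P1. The sums are dominated by the abundant subunits, so each gene is described next.

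At 7 days after knockout, 36 of the 37 members fell in the libraries labelled KO (edgeR, adjusted p under 0.05), beside 24.3% of all 15167 genes tested that were called lower. All 35 structural subunits and Ndufa4 were among them, and for each of these 36 genes every KO library lay below every control. The share of all genes so placed was not taken, so this separation cannot be called particular to the members. Ndufa4l2 was not called. The median log2 fold change of the 37 was -1.12, beside 0.03 over all genes tested, and the structural subunits ran from -1.51 (Ndufs7) to -0.67 (Ndufc2). In bulk tissue, fewer heart muscle cells and less of these RNAs per cell cannot be told apart.

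The nuclear core of the matrix arm fell in all 7 genes, with a median of -1.22. Ndufs7 (ENSMUSG00000020153, chromosome 10, 80249121 to 80256794, plus strand) carries the last iron-sulfur cluster before ubiquinone. It stood at 201, 280.1, 238, 247 and 187 CPM in the KO libraries, against 708, 635, 608 and 636 in the controls. The lowest control was above the highest KO library by a wide margin, and the fold change was the largest of the family, -1.51 ± 0.12 (log2 ± SE, adjusted p = 1e-05). Ndufs8, its neighbour in the quinone part and also an iron-sulfur protein, stood at 104, 125, 106, 116 and 96.3 CPM against 277, 260.4, 244 and 279.9. The groups were well apart, with a log2 fold change of -1.29 ± 0.10. Ndufs3 (-1.12 ± 0.10), also of the quinone-reducing core, fell less on the log2 scale. In the NADH-oxidizing tip, Ndufs1, the large subunit that carries several iron-sulfur clusters, stood at 246, 286, 285, 291 and 201 CPM against 649.6, 605, 582 and 622 (-1.25 ± 0.12). Ndufv2 fell by 1.22 ± 0.14. Ndufv1, the subunit that binds FMN and NADH, fell by 0.97 ± 0.10, the smallest log2 change of the core.

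Accessory subunits around the matrix arm fell as well, 7 of 7 in the NADH part (median -1.17) and 2 of 2 in the quinone part. Ndufs4, a small subunit that holds the NADH tip in place and whose loss causes a mitochondrial encephalopathy, stood at 41.9, 56.0, 56.6, 54.2 and 35.9 CPM against 137, 127, 112 and 134. No library overlapped, and the log2 fold change was -1.40 ± 0.14, second to Ndufs7. Ndufa6, the subunit that docks an acyl carrier protein, stood at 82.6, 106, 101, 104 and 79.3 CPM against 267, 222, 220.4 and 219 (-1.32 ± 0.11). The smallest falls of this arm were those of Ndufa7 (-0.71 ± 0.09) and Ndufa2 (-0.84 ± 0.10). Ndufa5 and Ndufa9 of the quinone part fell by 1.26 ± 0.10 and 1.11 ± 0.10.

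Accessory subunits of the membrane arm had median log2 changes of -1.01 over 9 genes of the proximal part and -1.09 over 10 genes of the distal part. Their ranges overlap those of the matrix arm, and the difference between the arms was not tested. The proximal part held both a large fall, Ndufa8 (-1.31 ± 0.13), and the smallest one of all structural subunits, Ndufc2. Ndufc2 (ENSMUSG00000030647, chromosome 7, 97400003 to 97407802, plus strand) stood at 78.9, 129.6, 141, 133 and 81.0 CPM in the KO libraries against 184, 174, 167 and 185. Libraries 1 and 5 were far below the other 3, and the log2 fold change of -0.67 ± 0.18 (adjusted p = 0.0091) was -0.41 ± 0.08 without them. The distal part ran from -1.28 ± 0.15 (Ndufb10) to -0.73 ± 0.13 (Ndufb6). Of the X-linked members, Ndufa1 had -0.86 ± 0.09 and Ndufb11 -0.97 ± 0.09.

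Libraries 1 and 5, those with low Esr1, were the lowest pair of the KO libraries for 20 of the 35 structural subunits and the highest pair for 3 (Ndufa3, Ndufb11 and Ndufv3). The ratio of the highest to the lowest KO library was largest for Ndufc2 (1.79), Ndufb3 (1.73), Ndufb10 (1.62) and Ndufs4 (1.58), with a median of 1.32. Ndufb3, for example, stood at 41.1 and 37.8 CPM in libraries 1 and 5 and at 62.2, 65.4 and 63.2 in the others, whereas Ndufa3 stood at 138 and 139 against 129.8, 116 and 123. Without both libraries, the same count of 36 members was called lower and the median was -1.04. Their part in these differences was not tested.

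Ndufa4, now placed in cytochrome c oxidase, followed the structural subunits at 264, 317, 259.9, 298 and 247 CPM against 620.2, 541, 494 and 559 (-1.02 ± 0.11). Its paralog Ndufa4l2, known as a gene induced by low oxygen, did not pass the test. It stood at 22.2, 23.4, 21.1, 19.1 and 23.4 CPM against 25.0, 26.4, 23.6 and 23.1, ranges that overlap, with a log2 fold change of -0.18 ± 0.09 (adjusted p = 0.127). With total count scaling this value was 0.24, also not called.

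**Figure D2:**
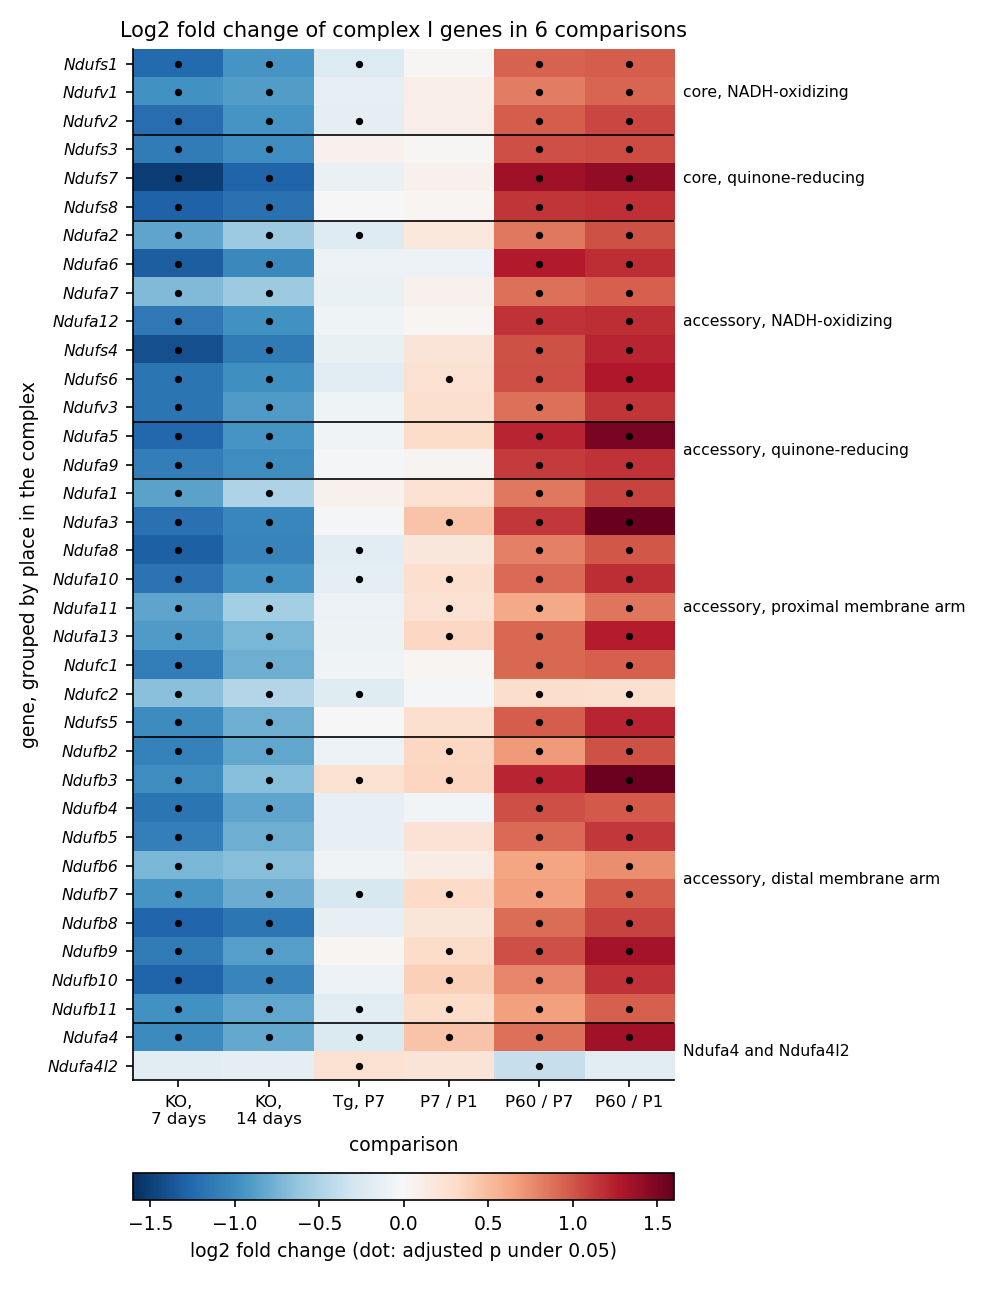
Log2 fold change (colour) of 36 protein-coding members (rows, grouped by place in the complex) in 6 comparisons (columns), with a dot where the adjusted p was under 0.05. In every row but Ndufa4l2, both KO columns are blue and both P60 columns red, all with a dot, while the Tg and P7 against P1 columns are pale.

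At 14 days, 36 of 37 members again were lower (22.4% of all 14976 genes tested were called lower), with Ndufa4l2 again the exception. The groups did not overlap for any of the 36, and the share of all genes without overlap was not taken. The median was -0.89, beside 0.01 over all genes. Ndufs7 stood at 284, 256, 295 and 298 CPM in the KO libraries against 620.2, 699.6 and 707 in the controls, a log2 fold change of -1.28 ± 0.09 and again the largest fall. Ndufs8 followed at 136, 126, 127 and 140.5 CPM against 289, 323 and 278 (-1.20 ± 0.09). Ndufb8, a distal membrane subunit often used as a marker of assembled complex I on blots, stood at 216, 232, 251 and 252 CPM against 516, 539 and 503 (-1.16 ± 0.09). In all 3 genes the KO libraries were tightly grouped and far from the controls.

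Among the other core genes, Ndufs3 had -0.99 ± 0.08, Ndufs1 -0.95 ± 0.11, Ndufv2 -0.95 ± 0.07 and Ndufv1 -0.89 ± 0.08. The core median was -0.99, beside -0.78 for the proximal and -0.83 for the distal membrane arm. The smallest falls were those of Ndufc2, at 137, 139.5, 139.6 and 156 CPM against 192, 204 and 186 (-0.47 ± 0.08), and of Ndufa1, a membrane subunit needed early in assembly, at 91.8, 89.0, 73.6 and 86.0 CPM against 113, 127 and 111 (-0.49 ± 0.10). Ndufa4 fell by 0.82 ± 0.08 on the log2 scale. Ndufa4l2 stood at 22.5, 22.3, 29.3 and 26.1 CPM against 24.2, 24.4 and 33.3, and its difference of -0.15 ± 0.14 did not pass (adjusted p = 0.415). That value turned to 0.01 without control library 7, its highest, and to 0.21 with total count scaling.

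With total count scaling in place of TMM, the median over all genes moved to 0.45 at 7 days and 0.39 at 14 days, and the share of called genes that were higher went from 52% to 83.5% and from 49.4% to 81.9%. The members' median was then -0.69 and -0.51, which is -1.14 and -0.90 relative to all genes. Under this scaling 34 members were called lower at 7 days, without Ndufc2 (-0.24) and Ndufb6 (-0.30), and 30 at 14 days, without Ndufa1, Ndufa2, Ndufa7, Ndufa11, Ndufb6 and Ndufc2. Each of these kept its negative sign.

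**Figure D3:**
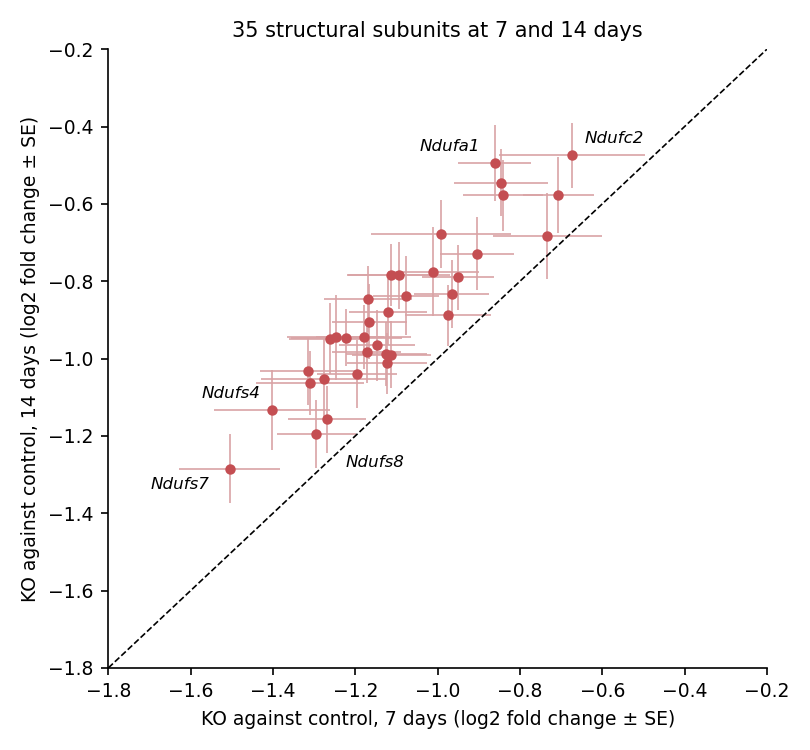
Log2 fold change of the 35 structural subunits at 7 days (x axis) and at 14 days (y axis) after knockout, KO against control, with SE bars and the line of equality dashed. All points lie above the line, with Ndufs7 at the lower left and Ndufc2 at the upper right.

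The comparison of times asked whether the response at 14 days differed from that at 7 days. For each of the 35 structural subunits the fall was larger at 7 days. In the test of this difference over the 16 P60 libraries, all 37 members had a positive value, with a median of 0.25 beside 0.007 over all genes, and none was called (0% of 15951 genes were called in either direction). Unadjusted p-values were under 0.05 for 7 members and for 1662 genes (10.4%). The lowest p-values among members were those of Ndufa1 (0.39 ± 0.13, edgeR adjusted p = 0.304) and Ndufc1 (0.35 ± 0.14, adjusted p = 0.40). The core values were 0.33 ± 0.17 for Ndufs1, 0.16 ± 0.13 for Ndufs3, 0.24 ± 0.16 for Ndufs7, 0.12 ± 0.13 for Ndufs8, 0.11 ± 0.13 for Ndufv1 and 0.30 ± 0.17 for Ndufv2, beside 0.22 ± 0.14 for Ndufa4 and 0.05 ± 0.17 for Ndufa4l2. DESeq2 called 147 genes and limma-voom 0, with no member in either. Without KO libraries 1 and 5 the median was 0.15.

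The order of the subunits was alike at both times. Over the 35, the log2 fold changes at 7 and at 14 days had a Pearson correlation of 0.915, and 0.902 without Ndufc2. The times share no library, but the genes are not independent. The plot of both times shows the same subunits at its ends.

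The rest of the complex and its partners fell with the members. Ndufab1, the acyl carrier protein that is a complex I subunit outside the symbol rule, changed by -1.30 ± 0.12 at 7 days and -1.14 ± 0.11 at 14 days. All 7 core subunits of the membrane arm that mitochondrial DNA encodes were called lower at both times. At 7 days mt-Nd1 had -1.34 ± 0.14, mt-Nd2 -1.29 ± 0.15, mt-Nd3 -1.85 ± 0.18, mt-Nd4 -0.98 ± 0.13, mt-Nd4l -2.01 ± 0.22, mt-Nd5 -0.98 ± 0.18 and mt-Nd6 -1.11 ± 0.22. Reads of these genes and of their nuclear copies may have been split in the counting, so the values are uncertain. Per count of the 35 nuclear subunits the 7 genes had 15.36, 9.56, 12.30, 10.85 and 15.64 counts in KO libraries 1 to 5 of 7 days, against 11.53 to 13.73 in the controls. Libraries 1 and 5 lay above every control, 2 and 4 below every control, and 3 among them. At 14 days the counts were 10.94 to 16.13 against 12.08 to 12.39, ranges that overlap.

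All 18 assembly factors tested were called lower at each time, with medians of -0.84 and -0.65. The largest falls were those of Ndufaf6 at 7 days (-1.19 ± 0.18) and Ecsit at 14 days (-1.01 ± 0.09). Complex I did not stand out from the other respiratory complexes, whose nuclear genes had medians of -1.13 (complex II), -1.06 (complex III), -1.06 (complex IV) and -1.07 (complex V) at 7 days. The summed subunits relative to the summed nuclear genes of complexes II to V came to 0.283 ± 0.0057 in the KO libraries and 0.287 ± 0.0052 in the controls at 7 days, and 0.289 ± 0.0084 and 0.288 ± 0.0044 at 14 days. A further list held 16 genes of the mitochondrial membranes, import, matrix chaperones (Hspd1, Hspe1 and Hspa9) and DNA maintenance. Relative to their sum, the ratio of the subunits was lower at 7 days, 2.03 ± 0.153 (1.79 to 2.21) against 2.51 ± 0.0514 (2.47 to 2.58), with no overlap. At 14 days it was 2.35 ± 0.0732 (2.27 to 2.45) against 2.57 ± 0.0745 (2.49 to 2.63), again with no overlap.

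Of 15 genes for transcription regulators of the respiratory chain, 11 were called lower and 1 higher at 7 days, and 10 lower at 14 days. Ppargc1a, a coactivator of mitochondrial genes, had the largest fall at both times, -2.72 ± 0.50 and -2.47 ± 0.31, and Pprc1, a related coactivator, rose by 0.84 ± 0.25 at 7 days. Among the factors whose letters were searched, all 3 estrogen-related receptors were called lower at both times, Esrra at -0.83 ± 0.15 and -0.77 ± 0.10, Esrrb at -1.38 ± 0.27 and -0.73 ± 0.11, and Esrrg at -1.31 ± 0.30 and -0.90 ± 0.11. Gabpa was called lower as well (-0.24 ± 0.09 and -0.27 ± 0.08), while its partner Gabpb1 (0.32 ± 0.12 and 0.15 ± 0.11), Nrf1 (0.06 ± 0.11 and 0.04 ± 0.11) and Yy1 (-0.11 ± 0.10 and -0.05 ± 0.08) did not pass. The 5 subunits with the YY1 letters had log2 fold changes of -1.51 to -1.11 at 7 days (median -1.17), and the 26 other subunits with a window had -1.32 to -0.67 (median -1.11), ranges that overlap.

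Markers of cell types moved with these groups. At 7 days, 8 of 10 cardiomyocyte markers were called lower, and their sum was 19790 to 40060 CPM in the KO libraries against 61460 to 67320. At 14 days 8 of 10 were lower and 1 higher, with 40380 to 47440 against 65980 to 71790. Of 8 fibroblast markers, 5 were called higher at 7 days and 7 at 14 days, with sums of 3530 to 9258 against 1327 to 1607 and 4519 to 5223 against 1488 to 1607. Of 8 macrophage markers, 8 and 7 were higher, with sums of 899.2 to 1335 against 353.2 to 433.6 and 587.8 to 850.0 against 305.5 to 458.7. None of these markers was at 0 in any library. Of 8 endothelial markers, 6 were called lower at 7 days and 4 at 14 days, with sums of 600.7 to 841.7 against 1032 to 1145 CPM and 802.4 to 1022 against 1121 to 1135. Of 7 mural cell markers, 4 were lower and 2 higher at 7 days (509.8 to 659.6 against 1062 to 1167 CPM) and 2 lower and 2 higher at 14 days (744.6 to 960.9 against 1145 to 1206). All 5 erythroid genes were lower at 7 days (265.7 to 878.3 against 944.0 to 2103 CPM) and 1 at 14 days (609.6 to 830.5 against 669.4 to 1260). Per CPM of cardiomyocyte markers the subunits came to 0.1998, 0.1558, 0.1533, 0.1416 and 0.2370 in KO libraries 1 to 5 of 7 days, against 0.1682 to 0.1947 in the controls. Libraries 1 and 5 thus lay above every control and libraries 2, 3 and 4 below every control. At 14 days the values were 0.147 ± 0.0141 (0.138 to 0.168) against 0.179 ± 0.0063 (0.173 to 0.185). The part of cell composition in the falls was not tested.

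**Figure D4:**
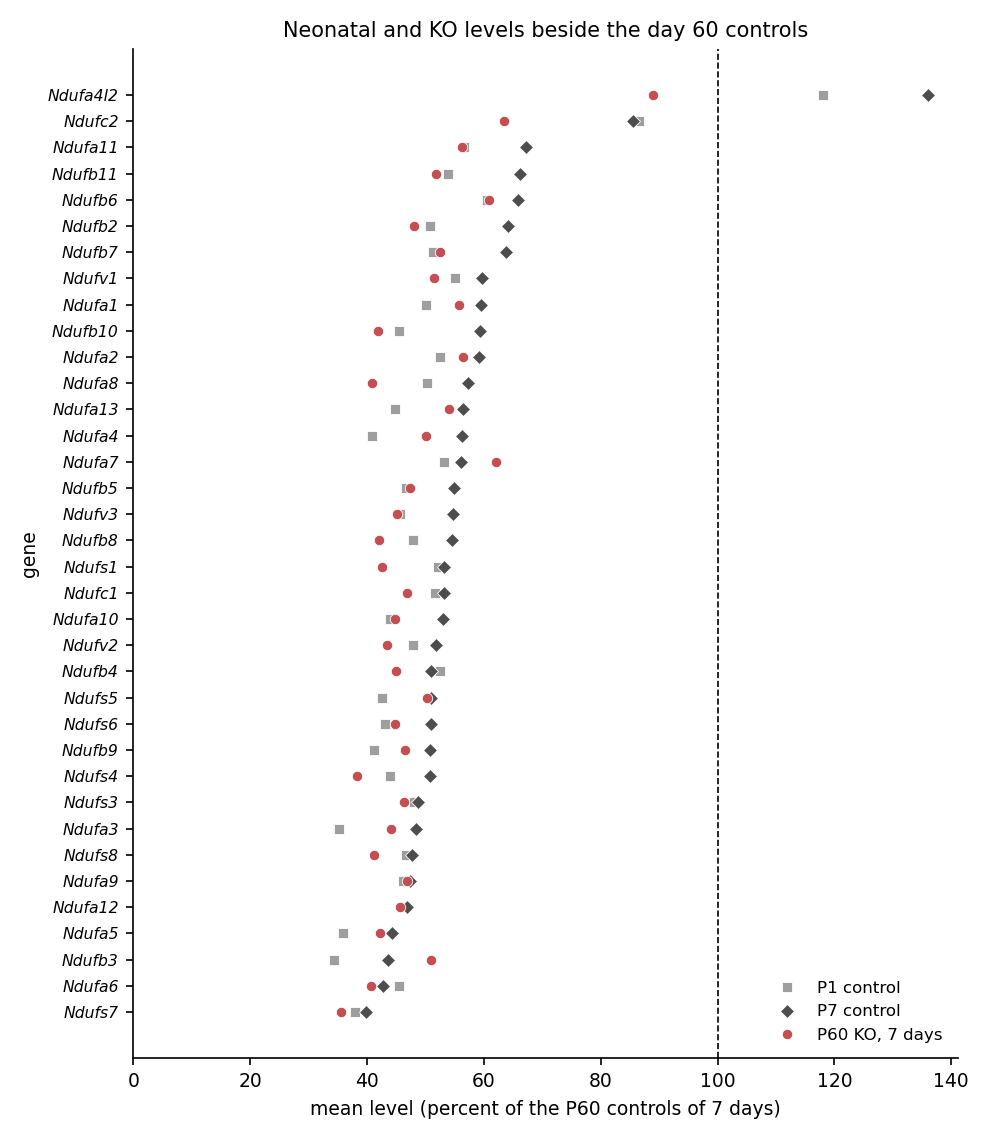
Mean level of 36 protein-coding members (rows) in the P1 controls, the P7 controls and the libraries labelled KO at 7 days, as percent of the mean in the P60 controls of 7 days (x axis, dashed line at 100), ordered by the P7 value. KO values of the structural subunits lie between 35.6% and 63.5%, beside 39.9% to 85.6% at P7, and Ndufa4l2 alone has neonatal values above 100.

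Set beside the neonatal hearts on the TMM scale, the KO levels of 7 days met or lay below those of P7, and many of those of 14 days lay above. This placement depends on the scaling. As a share of counts that are not mitochondrially encoded, the summed structural subunits of 14 days lay below P7 (0.7544% to 0.8326% against 0.8375% to 0.8863%). On that share those of 7 days (0.6032% to 0.733%) also lay below P1 (0.7385% to 0.8191%). As percent of the P60 controls of 7 days, the structural subunits had a median of 46.5% (35.6% to 63.5%) in the libraries labelled KO at 7 days, 53.1% (39.9% to 85.6%) at P7 and 47.8% (34.3% to 86.6%) at P1, all 3 relative to the same controls. For 11 of the 35 subunits every KO library of 7 days lay below every P7 control, for 24 the ranges met, and for none did the KO libraries lie above. At 14 days 2 were below, 20 met and 13 were above. Against P1, the counts were 3 below, 31 meeting and 1 above at 7 days and 0, 14 and 21 at 14 days. Relative to the P7 mean, the KO mean of 7 days was lowest for Ndufb10 (70.6%), Ndufa8 (71.3%) and Ndufc2 (74.2%). The value of Ndufc2 rests on libraries 1 and 5, at 78.9 and 81.0 CPM beside 129.6, 141 and 133 in the other 3. The 3 subunits below every P1 library were Ndufa8, Ndufc2 and Ndufs1, and Ndufa13 was the 1 above. These positions were read from ranges, and the difference between KO and neonatal libraries was not tested. The share of all genes placed in these ways was not taken, so the counts cannot be called particular to the subunits.

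From P1 to P7, 12 of 37 members rose and none fell (12.3% of all 16388 genes tested were called higher), with a median of 0.20 beside -0.01 over all genes. None of the 7 core genes of the matrix arm was called, and their values ran from 0.02 to 0.11. Among them were Ndufs3 (0.02 ± 0.07), Ndufs1 (0.02 ± 0.06), Ndufs8 (0.03 ± 0.08), Ndufs7 (0.07 ± 0.09), Ndufv2 (0.11 ± 0.07) and Ndufv1 (0.11 ± 0.07). Ndufs1 shows how close the ages were, at 326, 319 and 334 CPM at P7 and 314, 337, 314 and 316 at P1, with overlapping ranges. Accessory subunits of the membrane arm made up 10 of the 12 calls, 6 of 10 in the distal part and 4 of 9 in the proximal part, with Ndufs6 as the only 1 of 7 in the NADH part. The difference between the arms was not tested.

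Ndufa4 had the largest rise, 289.7, 321 and 324 CPM at P7 against 224, 235, 206 and 239 at P1 (0.46 ± 0.08, adjusted p = 0.00088). Ndufa3, a small proximal membrane subunit, stood at 152, 137 and 135 CPM against 100.1, 94.7, 101 and 116 (0.45 ± 0.09), and Ndufb10, a distal subunit with disulfide-bonded cysteines, at 249.9, 232 and 258 against 174, 195, 183 and 207 (0.38 ± 0.09). In all 3 the lowest P7 library was above the highest P1 library. Ndufa4l2 stood at 34.3, 32.8 and 32.9 CPM against 31.5, 27.8, 23.7 and 32.6, and its value of 0.20 ± 0.12 did not pass (adjusted p = 0.25). The count fell to 6 without P7 control library 2, to 6 without library 3 and to 2 with replicate number as a block. Calls over all genes fell alongside, from 3844 to 2508, 2596 and 1624. The block fit held only the P1 and P7 libraries whose number is in both groups, and no P60 control. The block and the loss of libraries therefore cannot be told apart. With total count scaling 9 members were called higher, and the values of Ndufs1, Ndufs3 and Ndufs8 turned slightly negative (-0.03, -0.04 and -0.03). The share of called genes that were higher then went from 52.4% to 41%.

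Of the 7 mitochondrially encoded core genes 3 were called higher from P1 to P7, mt-Nd4 (0.76 ± 0.14), mt-Nd5 (0.85 ± 0.12) and mt-Nd6 (1.003 ± 0.15), and the other 4 were not, among them mt-Nd1 (-0.11 ± 0.10). The counts of all 7 per count of nuclear subunits went from 7.70 ± 1.03 at P1 to 8.95 ± 0.393 at P7. Of the assembly factors, Tmem126b had the largest rise (0.44 ± 0.10) and Dmac2 the only fall (-0.24 ± 0.06), with 16 of 18 not called. Of the regulators, Perm1, a muscle regulator of mitochondrial genes, rose by 0.54 ± 0.15 and Esrrb, an estrogen-related receptor, fell by 0.77 ± 0.10. Ndufab1 had 0.15 ± 0.06 and did not pass. Of the cardiomyocyte markers 4 of 10 were called higher and 1 lower, with sums of 40890 to 44240 CPM at P7 against 32180 to 37130 at P1, and 6 of 8 fibroblast markers were higher (5383 to 6349 against 2367 to 3669). Endothelial markers were higher in 5 of 8 (1436 to 1459 against 1092 to 1210 CPM), and mural cell markers were higher in 5 and lower in 1 of 7 (916.1 to 981.9 against 523.3 to 607.7). Erythroid genes were higher in 2 of 5 (1338 to 1774 against 812.5 to 1269 CPM). The part of these markers in the changes of the members was not tested.

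Between P7 and P60 most members rose. Of the 37 members 36 were called higher (33.3% of all genes tested were), with a median of 0.92 beside -0.05 over all genes. For these 36 every P60 control lay above every P7 control, and the share of all genes so placed was not taken. The largest rises were those of Ndufs7, from 275, 241 and 257 CPM to 608 to 708 over the 7 P60 controls (1.35 ± 0.09), of Ndufa6 (1.27 ± 0.08) and of Ndufb3 (1.22 ± 0.10). The core rose in all 7 genes, among them Ndufs8 by 1.14 ± 0.07, Ndufs3 by 1.03 ± 0.07, Ndufv2 by 0.97 ± 0.07, Ndufs1 by 0.94 ± 0.06 and Ndufv1 by 0.81 ± 0.07. Ndufa4 rose by 0.88 ± 0.08.

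Ndufc2 was again at the end of the range. It stood at 164, 142 and 150 CPM at P7 and at 184, 174, 167, 185, 192, 204 and 186 in the P60 controls, groups that do not overlap, with a log2 fold change of 0.28 ± 0.06 (adjusted p = 0.0012). The next smallest rise, that of Ndufa11, was 0.61 ± 0.07. With total count scaling Ndufc2 turned to -0.32 and was called lower, and when 1 fit held all 27 libraries its 0.29 was not called. Ndufa4l2 was called lower, -0.37 ± 0.11 (adjusted p = 0.0064, beside 36% of all genes called lower), at 23.1 to 33.3 CPM in the 7 P60 controls against 32.8 to 34.3. Its ranges overlap through a single P60 library, control 7 of 14 days, at 33.3 CPM.

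**Figure D5:**
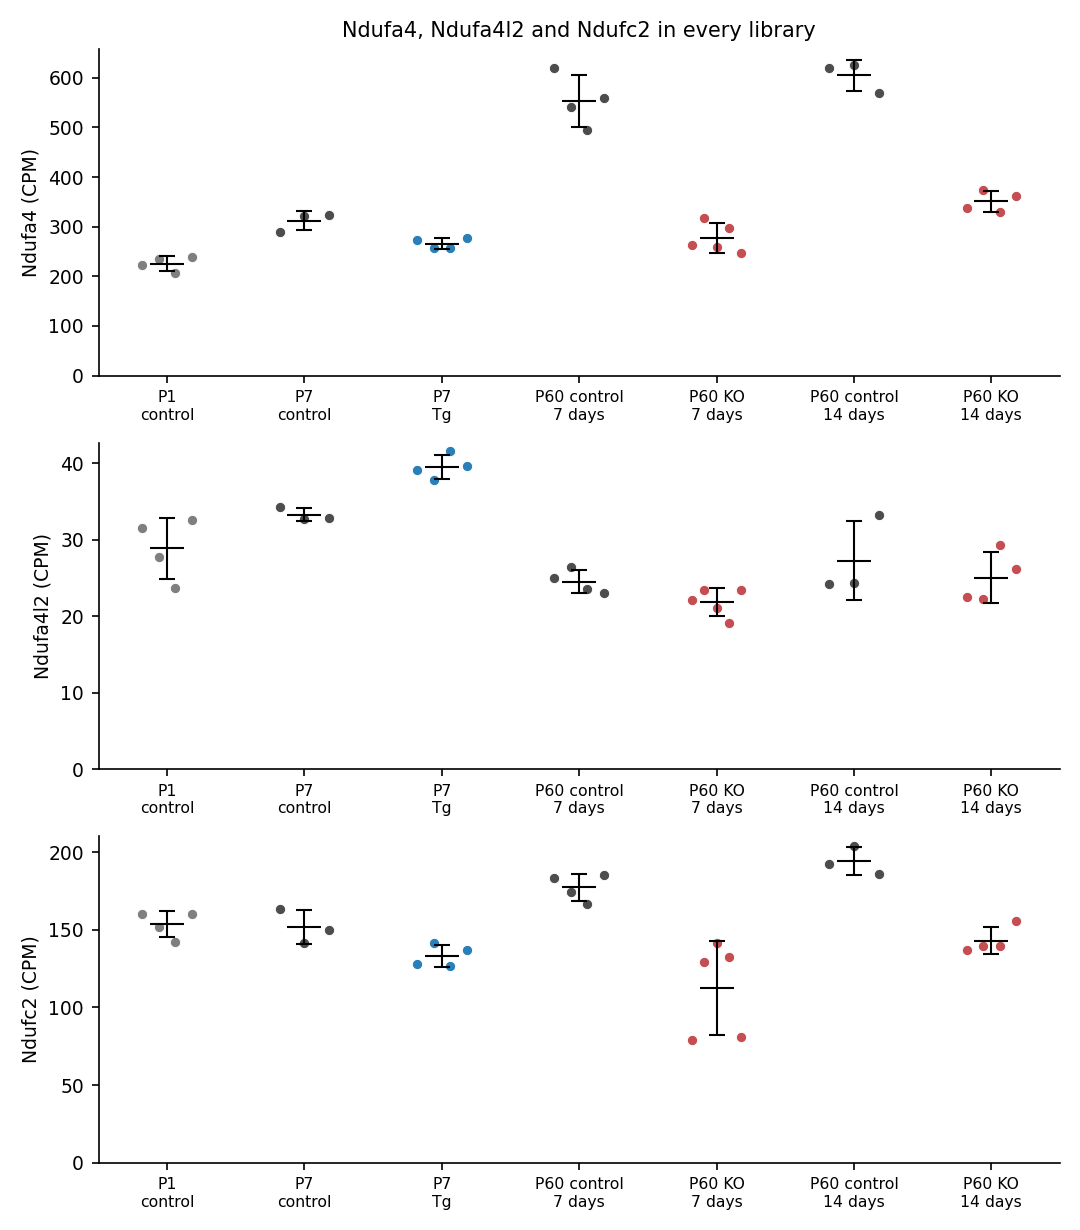
CPM (y axes) of Ndufa4, Ndufa4l2 and Ndufc2 in each library (points) by group, with mean and SD in black. Ndufa4 is high in the P60 controls only, Ndufa4l2 is highest in the Tg libraries at 37.9 to 41.6, and Ndufc2 shows KO libraries 1 and 5 of 7 days apart, at 78.9 and 81.0.

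Over the whole span from P1 to P60, 36 of 37 members were called higher (35.1% of all genes tested), with a median of 1.09 beside -0.05. Ndufa3 had the largest rise, from 94.7 to 116 CPM at P1 to 275 to 364 in the P60 controls (1.58 ± 0.08). Ndufb3, a distal subunit, rose by 1.57 ± 0.09 and Ndufa5, a quinone part subunit, by 1.52 ± 0.10. Of the core, Ndufs7 rose by 1.42 ± 0.08, Ndufs8 by 1.17 ± 0.07, Ndufv2 by 1.07 ± 0.06, Ndufs3 by 1.05 ± 0.06, Ndufs1 by 0.96 ± 0.05 and Ndufv1 by 0.93 ± 0.06. Ndufa4 rose by 1.35 ± 0.07. Ndufc2 had the smallest rise, 0.26 ± 0.06, and Ndufa4l2 did not pass (-0.17 ± 0.10, adjusted p = 0.13). Ndufa4l2 was called lower without P1 library 3 (-0.27) or without control library 7 of 14 days (-0.25).

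Scaling bears on these comparisons as well. With total count scaling the median over all genes was -0.65 from P7 to P60 and -0.71 from P1 to P60, and the share of called genes that were higher went from 48.1% to 18% and from 47.6% to 19.3%. The members' medians were then 0.32 and 0.43, which is 0.96 and 1.13 relative to all genes. From P7 to P60, 29 members were called higher and 2 lower (Ndufc2 and Ndufa4l2), and Ndufa11, Ndufb2, Ndufb6, Ndufb7, Ndufb10 and Ndufb11 were not called. From P1 to P60, 34 were higher, Ndufc2 (-0.40) and Ndufa4l2 (-0.82) were lower and Ndufb6 was not called.

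All 7 mitochondrially encoded core genes rose from P7 to P60, with a median of 1.52 against 0.92 for the members, and from P1 to P60 with 2.11 against 1.09. Their counts per count of nuclear subunits were 12.8 ± 1.08 and 12.2 ± 0.156 in the P60 controls, above the 8.95 ± 0.393 of P7 and the 7.70 ± 1.03 of P1 in every library. Assembly factors rose in 17 of 18 genes from P7 to P60 (median 0.66), with Tmem70 at 1.28 ± 0.07, and in 16 of 18 from P1. The subunits relative to the other respiratory complexes went from 0.244 ± 0.0052 at P1 and 0.262 ± 0.0072 at P7 to 0.287 ± 0.0052 and 0.288 ± 0.0044 at P60, with no overlap between these ages. Of the regulators 9 were higher and 5 lower at P60 than at P7, Ppargc1a by 2.31 ± 0.36 and Gabpb1, a subunit of an ETS-family complex, by -0.94 ± 0.10. From P1 the largest fall was that of Ppargc1b (-0.91 ± 0.13). Ndufab1 rose by 0.79 ± 0.06 from P7 and 0.94 ± 0.05 from P1. All 10 cardiomyocyte markers were higher at P60 than at P7 (sums of 61460 to 71790 CPM against 40890 to 44240), 6 of 8 fibroblast markers were lower and 8 of 8 macrophage markers higher. Endothelial sums were 1032 to 1145 CPM against 1436 to 1459, mural 1062 to 1206 against 916.1 to 981.9, and erythroid 669.4 to 2103 against 1338 to 1774. Per CPM of cardiomyocyte markers the subunits came to 0.1803 ± 0.01165 and 0.1789 ± 0.0063 in the P60 controls of 7 and 14 days. The same ratio was 0.1471 ± 0.0093 at P7 and 0.1587 ± 0.0103 at P1. The part of these markers in the rise was not tested.

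The subunits that rose most with age tended to be those that fell most after knockout, as seen when the comparisons are taken from separate controls. Over the 35 structural subunits, the log2 fold change at 7 days correlated with that from P7 to the P60 controls of 14 days at a Pearson r of -0.614 (Spearman -0.505), and at -0.531 without Ndufc2. The fold change at 14 days correlated with that from P7 to the P60 controls of 7 days at -0.621 (Spearman -0.574), and at -0.546 without Ndufc2. These pairs share no library, the values are across genes that are not independent, and levels and exon composition are shared between them. For single genes the rise from P7 was taken over both P60 control groups, which also served as controls for the falls. At the ends of that range, Ndufs7 had the largest fall at both times and the largest rise from P7, and Ndufc2 the smallest of each. Ndufb3 and Ndufb10 did not follow this order, with -0.99 and -1.28 at 7 days beside rises of 1.22 and 0.78 from P7.

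The members changed little in the gain-of-function heart at P7. Of the 37 members, 10 were called lower (15.8% of all 15893 genes tested) and 2 higher (14.9%), and the median was -0.10 beside -0.002 over all genes. The values ran from -0.25 to 0.24. Ndufb7, a distal membrane subunit, had the largest fall, at 211, 189.8, 199 and 199 CPM against 238, 227 and 247 (-0.25 ± 0.05, adjusted p = 0.0028). Ndufa4 stood at 274, 256, 257 and 277 CPM against 289.7, 321 and 324 (-0.23 ± 0.05) and Ndufs1 at 282, 284, 282 and 281 against 326, 319 and 334 (-0.21 ± 0.05). In all 3 each Tg library was below each control. Others called lower were Ndufv2 (-0.15 ± 0.05), Ndufa2, Ndufa8, Ndufa10, Ndufb11 and Ndufc2.

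The 2 that rose in Tg were Ndufb3, an accessory subunit of the distal arm, at 57.5, 50.5, 54.9 and 56.4 CPM against 40.8, 48.5 and 49.4 (0.24 ± 0.07, adjusted p = 0.0146), and Ndufa4l2, at 39.1, 37.9, 41.6 and 39.6 against 34.3, 32.8 and 32.9 (0.24 ± 0.05, adjusted p = 0.0023). For both every Tg library was above every control, and Ndufb3 was not called without control library 1 (0.16). Of the other core genes, Ndufv1 (-0.13 ± 0.05), Ndufs7 (-0.10 ± 0.06), Ndufs3 (0.07 ± 0.06) and Ndufs8 (0.0004 ± 0.05) did not pass. The count of lower members was 6 without Tg library 3 and 6 without control library 3. When 1 fit held all 27 libraries no member was called in either direction. The edgeR adjusted p was then 0.278 for Ndufa4l2 and 0.411 for Ndufb3. With replicate number as a block, in a fit without Tg library 4, 6 members were called lower and Ndufb3 was not called (edgeR adjusted p = 0.0615). Calls over all genes fell under these settings as well, from 4878 in the main fit. They were 4249 without Tg library 3, 4047 without control library 3, 973 in the fit of 27 libraries and 3830 with the block.

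Around the complex, Ndufab1 fell by 0.20 ± 0.06 in Tg, while mt-Nd2 (0.31 ± 0.04) and mt-Nd4 (0.27 ± 0.04) rose and the other 5 mitochondrially encoded genes did not pass. Counts of the 7 per count of nuclear subunits were 10.5 ± 0.173 (10.4 to 10.7) against 8.95 ± 0.393 (8.50 to 9.24), with no overlap. Of the nuclear ATP synthase genes 13 of 15 were called lower and of complex III 5 of 9, and the summed subunits relative to the summed nuclear genes of complexes II to V came to 0.273 ± 0.0031 against 0.262 ± 0.0072. Among assembly factors 5 of 18 were lower, with Ndufaf6 at -0.54 ± 0.12, and among regulators 5 of 15 were lower and 1 higher, with Ppara, a fatty acid receptor, at -0.62 ± 0.13 and Esrrb at 0.43 ± 0.13. Cardiomyocyte markers were called lower in 3 and higher in 2 of 10 genes, with sums of 37720 to 44370 CPM against 40890 to 44240. Macrophage markers were higher in 8 of 8 (148.0 to 191.3 against 92.15 to 111.1) and fibroblast markers in 6 of 8 (6786 to 8062 against 5383 to 6349). Mural cell markers were higher in 3 of 7 (1091 to 1116 against 916.1 to 981.9 CPM), endothelial markers in 2 of 8 (1459 to 1523 against 1436 to 1459), and erythroid genes were lower in 3 of 5 (1250 to 1352 against 1338 to 1774). Per CPM of cardiomyocyte markers the subunits came to 0.1396 ± 0.0089 in Tg against 0.1471 ± 0.0093 in the P7 controls, with ranges that overlap. The part of these markers in the small falls was not tested.

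The Tg response did not resemble the KO response across subunits. The log2 fold changes in Tg correlated with those at 7 days at 0.020 and with those at 14 days at 0.086 (Pearson, 35 subunits, no shared libraries), in a comparison where the Tg values span less than 0.5.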

How the data were processed

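RNA-seq counts of 27 ventricle libraries were analysed. The deposited table held raw counts, whole numbers of reads per Ensembl gene, and all 27 of its columns were matched to samples by title. Per the submitters' processing notes the tools were STAR, featureCounts, DESeq2 and Salmon and the builds GRCm38 and mm10, with no version or role. Annotation, strand setting and filters are not given in the sources used here. Symbols, coordinates and exon lengths came from GENCODE M21, which held 55141 of 55487 identifiers. Exons of 16 of the 37 protein-coding members overlap another gene (14 on the opposite strand, 3 on the same), so reads there could be assigned to either.

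Total counts were 21929347 to 25675115 per library, so the 3 counts that a 0 could hide amount to 0.0956 to 0.187 CPM, counting error alone. Over 40 pairs of libraries within groups, the chi-square statistic per degree of freedom was 6.34 to 147 for genes with at least 20 summed counts, so each library counted as 1 sample.

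Genes were filtered with filterByExpr (minimum count 10, minimum total 15), scaled by TMM and tested with the quasi-likelihood F test of edgeR 4.0.16 in R 4.3.3, with Benjamini-Hochberg adjustment over all genes tested and calls at an adjusted p under 0.05. KO groups were compared with the controls of the same time, Tg with the P7 controls, and the control ages in 1 fit of 14 libraries with both P60 control groups averaged. The SE was obtained by dividing the size of each log2 fold change by the root of its F. CPM values use TMM over all 27 libraries. Where every library of a group is said to lie above or below another group, the share of all genes so placed was not taken. Alternatives were total count scaling, DESeq2 1.42.0, TMM without mitochondrially encoded genes, no low-count filter, limma-voom 3.58.1, 1 fit of all 27 libraries, a replicate block and leaving out libraries. The fit was tested on simulated data.

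The members, lists and tests were chosen with earlier results of these data known. Named in every comparison are nuclear core subunits (1 member is counted in all totals and not reported here by itself), Ndufa4 and Ndufa4l2, with the 3 largest called rises and falls, members that went against most, the 2 lowest p-values of the interaction, and outside the members Ndufab1, the mt-Nd genes, Mbnl1 and the assembly factor and regulator with the largest called rise and fall. Other subunits named with their position in an arm, and Esr1, Esrra, Esrrb, Esrrg, Gabpa, Gabpb1, Nrf1 and Yy1 at 7 and 14 days, were chosen after their values were seen.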

Additional observations from a re-analysis of the deposited data

Results flagged for a closer look

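In a group of 4 or more libraries, a library was looked at again when its gap to the nearest of the others was a large part of the whole range of the group. Of 110 group values tested over the named members and 4 summed measures, 5 stood out in this way, where chance gives about 1 in 20. Control library 1 of 7 days held 267.4 CPM of Ndufa6 against 219.3 to 222.5 in the other 3. KO library 8 of 14 days held 53.73 CPM of Ndufs4 against 65.15 to 67.47. P1 library 2 held 336.9 CPM of Ndufs1 against 313.7 to 315.6, and P1 library 3 held 109.9 CPM of Ndufs8 against 127.4 to 129.5. P1 library 2 also had 6.179 mitochondrially encoded counts per nuclear subunit count against 8.023 to 8.403.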

How the results depend on the processing

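Of 1306 values of named members under alternative settings, 1263 kept direction and side of the threshold, 16 lost the call, 4 gained one and 23 changed sign. The other members are outside this tally. Calls of Ndufa10, Ndufa11 and Ndufs6, for example, changed under several settings in Tg or from P1 to P7. With total count scaling the members' median was -0.69 at 7 days, -0.51 at 14 days, 0.32 from P7 to P60 and 0.43 from P1 to P60. Under it Ndufa4l2 turned to 0.24 at 7 days, 0.21 at 14 days and -0.0259 for the difference of times, Ndufs8 in Tg to -0.0229, and Ndufs1, Ndufs3 and Ndufs8 from P1 to P7 to -0.0321, -0.0358 and -0.0287. Without both KO libraries 1 and 5 the median difference of times was 0.15. Without both P1 libraries 3 and 4, Ndufs1 was -0.0058 and Ndufs8 -0.0296 from P1 to P7. With all 27 libraries in 1 fit 0 members were called lower in Tg and Ndufs8 was -0.0014, while calls over all genes fell from 4878 to 973. Leaving out 1 library at a time, members called lower in Tg ran from 6 to 11 and members called higher from P1 to P7 from 6 to 17. Calls over all genes ran from 3717 to 4486 in Tg and from 2508 to 4492 from P1 to P7, beside 4878 and 3844 in the main fits. Ndufa4l2 then ran from -0.24 to 0.0063 at 14 days and from -0.0336 to 0.22 for the difference of times, Ndufs8 from -0.0370 to 0.0276 in Tg and from -0.0330 to 0.0652 from P1 to P7, and Ndufs3 from -0.0120 to 0.0844 from P1 to P7. The cause of these changes was not tested.

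Replicate numbers do not pair the samples: correlations of same-numbered libraries' deviations were -0.363 to 0.167 over 13631 genes. With replicate number as a replicate block, 6 members were called lower in Tg and 2 higher from P1 to P7, beside 3830 and 1624 calls over all genes. Ndufs8 in Tg was -0.0037 under the block, and Ndufa4l2 was -0.14 for the difference of times. Counts at 7 and 14 days were 36 lower under the block as without it. All block fits held only libraries whose number is in both groups compared, which at 14 days left numbers 6 and 7. They thus differ from the main fits in their libraries as well as in the block. Depth does not limit the protein-coding members. Group sizes of 3 to 5 limit the precision of the Tg and P1 to P7 values.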
